A study of Mus musculus with 24 samples.

Results

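Potassium channel genes were followed in the testis of juvenile mice with and without *Atad2*, through the days on which the first haploid germ cells appear. Members were all rows of the count tables whose symbol opens with *Kcn*, goes on with lower-case letters and ends in a number, except *Kcnab1* and *Kcnu1*, which gave 90 of the 24456 genes listed. The tissue was testis of wild-type males (WT) and of homozygous *Atad2* knockout males (KO) killed on postnatal day 20, 22, 24 or 26, with no other treatment. The KO allele carries a *lacZ* cassette spliced to the first part of *Atad2*, with an exon of the gene removed by a Cre driven from the ubiquitous CMV promoter, so the loss is not limited to germ cells. Each genotype had 4 libraries on days 20 and 22 and 2 on days 24 and 26, 24 in all. The replicates were separate biological samples by the study's account, and whether any came from littermates was not given. A library name such as WT_d20_2 gives the genotype, the day and the replicate number in that order.

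Potassium channels let potassium ions cross the membrane and so set its resting voltage. The pore is built from pore-forming subunits of several families, which open with voltage, with internal calcium or sodium, or at rest, and auxiliary subunits attach to these pores and change how they open. In sperm, potassium efflux makes the membrane voltage more negative during capacitation, and in the somatic compartment of the testis potassium channels set the tone of smooth muscle in vessels and tubule walls. The members were ordered by the stem of their symbol. Voltage-gated pore subunits (*Kcna*, *Kcnb*, *Kcnc*, *Kcnd*, *Kcnh*, *Kcnq*) made up 30 members, electrically silent modifiers that join a *Kcnb* pore (*Kcnf*, *Kcng*, *Kcns*, *Kcnv*) 10, pores opened by calcium or sodium (*Kcnma*, *Kcnn*, *Kcnt*) 7, inward rectifiers (*Kcnj*) 15, tandem-pore leak channels (*Kcnk*) 14 and auxiliary subunits (*Kcnab*, *Kcne*, *Kcnip*, *Kcnmb*) 14.

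The libraries held between 10709667 and 19491935 counts assigned to genes, of which the members took 3148 to 9737, or 294 to 521 CPM (counts per 1000000 assigned). Potassium channel transcripts were therefore a small share of testis RNA, and many members sat at low counts. *Atad2* itself, the check of the genotype labels, ranged from 1098 to 2134 counts in WT libraries and from 425 to 924 in KO libraries, and on each day the highest KO value in CPM lay under the lowest WT value. RNA of the fused allele can still be counted, and the *Atad2* difference passed the test on days 20, 22 and 24 but not on day 26 (log2 fold change -1.25, adjusted p = 0.0628). Markers of testis cells were present in every group: 6 pachytene spermatocyte markers summed to between 1864 and 4566 CPM in a library, and 8 Sertoli cell markers to between 1098 and 2473 CPM. The labels name testis as the source, while their protocol text also refers to purified fractions of spermatogenic cells, and the libraries were taken as testis. The library WT_d20_2 stood apart, with 13.7% of its pairs aligned to several places, the highest share of the 24. Its members, at 294 CPM, also took the lowest share of the 24. In 8 libraries, 1 in each group, 4 epididymis markers (*Crisp1*, *Adam7*, *Lcn5* and *Defb20*) summed to between 50.6 and 716 CPM, against at most 14.2 CPM in the other 16. These sums were mostly *Crisp1* and, less, *Adam7*. *Lcn5* was at 31.4 CPM in WT_d24_2 and at most 0.409 CPM elsewhere, and *Defb20* was at most 0.348 CPM in any library. Counts of member calls, and the named members whose calls are lost without these libraries, are given both ways. The other genes of potassium transport were counted with all libraries only.

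Of the 90 members, 68 passed the filter on low counts and were tested among 17170 genes. A count was found for 63 members in every library, while *Kcnk16* had no count in any and 7 members in all, *Kcnk16* among them, reached at most 3 counts in each library. The 22 members that were not tested were *Kcna10*, *Kcne2*, *Kcnh4*, *Kcnh5*, *Kcnh6*, *Kcnh7*, *Kcnj3*, *Kcnj5*, *Kcnj12*, *Kcnj13*, *Kcnj14*, *Kcnk4*, *Kcnk7*, *Kcnk9*, *Kcnk10*, *Kcnk12*, *Kcnk15*, *Kcnk16*, *Kcnk18*, *Kcnmb2*, *Kcnn4* and *Kcnv1*, and their highest count in a library was 21. A gene at 3 counts lay at 0.153 to 0.316 CPM, depending on the library. Where all libraries of a group lay at or under that floor, the level of the group is known only as low, a fitted fold change is no measure of size, and the ratio of summed counts is given. Floors and intervals cover counting error only. The intervals are on counts summed over the libraries of a group, so they leave out the spread between libraries. The pairs also carry no molecular identifiers.

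Per unit of exon length, levels differed widely between members. Levels are given as FPKM, CPM divided by the length in kilobases of all annotated exons of the gene, as mean ± SD over the 24 libraries. The highest was *Kcne3*, an auxiliary subunit that sits beside voltage-gated pores, at 11.8 ± 11.9 FPKM, with a range from 0.0975 to 36.1. Its SD was as large as its mean because its level climbed with age. The order is that of means over all ages: in WT at day 20 *Kcne3* was at 0.173 to 0.648 CPM and *Kcnd3* at 78.6 to 95.8 CPM. *Kcnj9*, a G-protein-gated inward rectifier, followed at 10.2 ± 3.86 FPKM. *Kcnd3* and *Kcnh2*, voltage-gated pores known from the repolarization of heart muscle, stood at 7.46 ± 1.54 and 7.09 ± 1.09 FPKM, within their spread of each other. *Kcng4*, a silent modifier, was at 6.10 ± 1.5 FPKM, *Kcnmb4*, a regulator of the calcium-activated BK channel, at 5.06 ± 1.75, and *Kcnk3*, an acid-sensitive leak channel, at 4.94 ± 2.08, and these neighbours also lay within their spread.

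Lower in the order came *Kcnk6* at 2.45 ± 0.42 FPKM and *Kcng3* at 2.17 ± 0.581 FPKM. *Kcnma1*, the pore of the BK channel, was at 1.65 ± 0.227 FPKM and had a narrow range over all libraries. *Kcnj6*, a further G-protein-gated rectifier, was at 0.888 ± 0.696 FPKM, and *Kcnt1*, a sodium-activated pore, at 0.533 ± 0.154 FPKM. In all, 23 members had a mean over 1 FPKM and 23 had a mean under 0.1. By role, the median of the members' means was 0.839 FPKM for auxiliary subunits, 0.526 for silent modifiers, 0.277 for calcium- or sodium-activated pores, 0.172 for inward rectifiers, 0.169 for voltage-gated pores and 0.109 for tandem-pore leak channels. The 3 members with the most counts took 33.6% of all member counts.

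**Figure D1:**
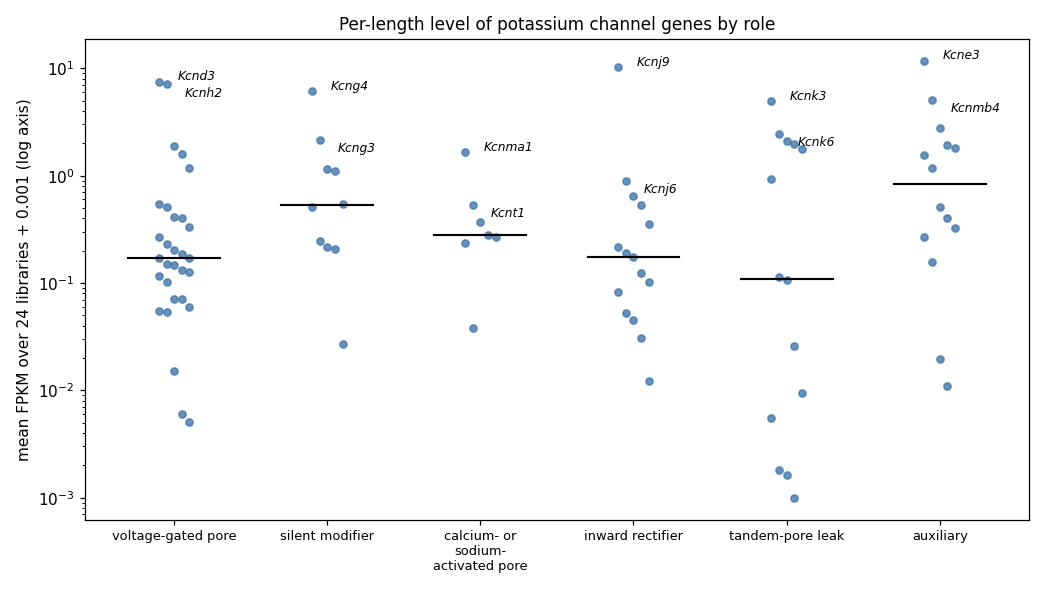
Mean level per exon length over the 24 libraries (FPKM + 0.001, log axis) of all 90 members, grouped by role, with 1 point for each gene and a bar at the group median. The 2 highest members of each role are named. On this mean over all ages *Kcne3* at 11.8 FPKM and *Kcnj9* at 10.2 FPKM lead, though *Kcne3* was low in WT at day 20. Auxiliary subunits have the highest group median, 0.839 FPKM.

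The first comparison asked which members differed between KO and WT on each day. At day 20, 3 of 68 members were higher in KO and none was lower (edgeR's quasi-likelihood test, adjusted p under 0.05). Over all genes tested the background was 3.34% called in either direction, 2.98% higher and 0.361% lower, so 3 members higher, 4.41% of those tested, was a share near the background. KO values lay above all WT values for 3 members, *Kcne3*, *Kcnf1* and *Kcnh3*, 4.41% against 3.03% of all genes, and under them for none, against 1.68%. Those described here are *Kcne3*, an auxiliary subunit, and *Kcnj6*, an inward rectifier. Unadjusted p-values lay under 0.05 for 11 of the 68 members and for 12.5% of all genes.

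*Kcne3* (chr7:100176502-100184869, + strand, build mm10) encodes a single-span auxiliary subunit. At day 20 it stood at 0.236, 0.527, 0.173 and 0.648 CPM in the WT libraries and at 2.32, 0.915, 6.8 and 10.7 CPM in the KO libraries. Every KO library lay above every WT library, and KO_d20_3 and KO_d20_4 were the highest. This was a log2 fold change of 3.75 (SE 0.73, adjusted p = 0.0103). At day 22 the KO libraries, at 10.8, 34.4, 17.8 and 11.4 CPM, again lay above the WT libraries, at 10.4, 4.77, 8.62 and 8.34 CPM, but the difference of 1.21 did not pass the test (adjusted p = 0.217). On days 24 and 26 the genotypes overlapped, and the fitted differences were 0.09 and -0.04.

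*Kcnj6* (chr16:94748636-94997701, - strand) encodes a G-protein-gated inward rectifier. Its day 20 levels were 0.550, 0.211, 0.173 and 1.01 CPM in WT and 1.31, 0.915, 5.28 and 5.96 CPM in KO. KO_d20_3 and KO_d20_4 were again the highest, and KO_d20_2 fell among the WT libraries, so the groups overlapped. KO exceeded WT by 2.77 on the log2 scale (SE 0.58, adjusted p = 0.0117). At day 22 all KO libraries, 5.33 to 11.2 CPM, lay above all WT libraries, 2.68 to 4.79 CPM, without passing the test (log2 fold change 1.07, adjusted p = 0.220).

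*Kcnf1* (chr12:17172100-17176888, - strand), a silent modifier, was just short of the threshold at day 20. Its KO libraries, at 0.653, 0.262, 1.25 and 0.677 CPM, lay above the WT libraries, at 0.157, 0, 0.116 and 0.216 CPM (log2 fold change 2.38, adjusted p = 0.0565). All WT libraries were at or under 3 counts, and the ratio of summed counts was 5.43 (95% interval 2.42 to 14.3). At day 26 *Kcnf1* stood at 0.695 and 1.65 CPM in WT and at 4.06 and 3.67 CPM in KO. That gap of 1.74 on the log2 scale had an adjusted p of 0.276, with 2 libraries a side.

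**Figure D2:**
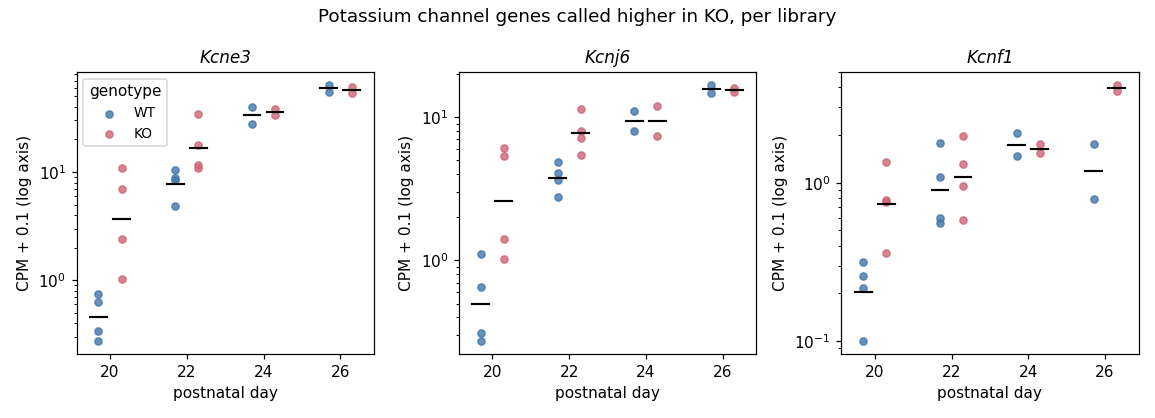
CPM + 0.1 on a log axis against postnatal day for *Kcne3*, *Kcnj6* and *Kcnf1*, which passed a test with higher values in KO at day 20 or over the mean of the days, with 1 point for each library, WT in blue and KO in red. Bars are geometric means of the plotted values. The KO libraries of day 20 sit above most or all WT libraries, and *Kcne3* and *Kcnj6* meet the WT levels by day 24.

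Markers of spermatids, and those of Leydig cells in part, were higher in the same libraries as these members at day 20. Of 6 round spermatid markers, 5 were called higher in KO at day 20, and their summed level was 22.3 to 66.2 CPM in WT and 52.6 to 143 CPM in KO. A stage score, the mean centred log2 CPM of the round spermatid markers minus that of the pachytene markers, averaged -2.88 ± 0.57 in WT and -0.99 ± 1.29 in KO at day 20 (SD, n = 4 each, difference 1.88, exact two-sided permutation p = 0.0571). The KO libraries with the highest *Kcne3* and *Kcnj6*, KO_d20_3 and KO_d20_4, also had the highest scores of that day, -0.30 and 0.43. The score was also higher in KO at day 22, by 0.88 (exact two-sided permutation p = 0.0286, the smallest possible), and differed by -0.22 and -0.34 at days 24 and 26 (p = 0.667 and 0.333, where 0.333 is the smallest possible). The 5 elongating spermatid markers, 1 of them called, summed to 0.527 to 3.53 CPM in WT and 1.90 to 38.5 CPM in KO at day 20. All 6 Leydig markers were fitted higher then and none was called, with sums of 250.1 to 355 CPM in WT and 261 to 658 CPM in KO. Of these, Cyp17a1 was at 177 and 215 CPM in KO_d20_3 and KO_d20_4 and at 31.3 to 73.8 CPM in the other 6 libraries of that day. Cyp11a1 was also highest there, at 124 and 133 CPM. Not all of the list followed: Star was highest in KO_d20_1 (106 CPM) and Hsd3b1 in WT_d20_2 (197 CPM). The part of these cells in the differences of the members was not tested. With this score added to the fit as a covariate no member was called at day 20: the differences became 1.15 for *Kcne3* (adjusted p = 0.263) and 0.73 for *Kcnj6* (adjusted p = 0.558). In whole tissue, fewer cells of a type and less RNA per cell cannot be told apart.

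The day 20 calls also rested on few libraries. Without WT_d20_3 no member passed (adjusted p = 0.0548 for *Kcne3* and 0.0644 for *Kcnj6*), and without WT_d20_2 or KO_d20_4 only *Kcne3* did. Without WT_d20_1 or KO_d20_3 the count was 2, both *Kcne3* and *Kcnj6* being called. Over the 24 fits that left out a library the fold changes ran from 3.12 to 4.18 for *Kcne3* and 2.34 to 3.45 for *Kcnj6*. Without the 8 libraries with epididymis markers none was called, and the log2 fold changes were 3.28 for *Kcne3* and 2.11 for *Kcnj6* (adjusted p = 0.366 and 0.415). A fit of day 20 alone also called none, with 3.73 for *Kcne3* (adjusted p = 0.158) and 2.76 for *Kcnj6* (adjusted p = 0.198).

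Promoter windows of members that rose over these days are printed to show the sequence before their starts. RefSeq windows of build GRCm38.p6, from 250 bases before to 50 after a start, were matched by symbol and found for 66 of the 90 members (89 windows). Only the bases before the start are printed, 5′ to 3′ on the strand of the gene, and capitals mark GC boxes (GGGCGG) and the letters CAGCACC, 1 side of the element bound by the repressor REST, on either strand. The second *Kcne3* start lies within the gene, and the *Kcnj6* starts are a distal and an internal one. The 50 bases after the second start of *Kcne3* and after the internal start of *Kcnj6* were not found in a GENCODE transcript of the gene.
*Kcne3*, chr7:100178433-100178682, + strand: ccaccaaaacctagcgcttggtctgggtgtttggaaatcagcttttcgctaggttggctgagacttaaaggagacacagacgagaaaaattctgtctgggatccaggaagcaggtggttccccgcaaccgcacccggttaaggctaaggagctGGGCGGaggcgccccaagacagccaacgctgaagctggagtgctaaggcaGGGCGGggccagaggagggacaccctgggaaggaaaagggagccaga
*Kcnj6*, distal start, chr16:94997697-94997946, - strand: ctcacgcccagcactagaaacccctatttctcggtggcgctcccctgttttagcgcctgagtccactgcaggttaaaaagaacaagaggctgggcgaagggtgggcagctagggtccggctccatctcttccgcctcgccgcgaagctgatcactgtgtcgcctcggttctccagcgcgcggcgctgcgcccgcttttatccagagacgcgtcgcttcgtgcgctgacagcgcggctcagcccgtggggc
*Kcnj6*, internal start, chr16:94856691-94856940, - strand: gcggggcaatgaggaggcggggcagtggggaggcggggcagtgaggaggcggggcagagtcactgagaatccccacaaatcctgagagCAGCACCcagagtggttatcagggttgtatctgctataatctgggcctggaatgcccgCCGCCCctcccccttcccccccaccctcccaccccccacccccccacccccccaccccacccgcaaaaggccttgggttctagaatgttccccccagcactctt
*Kcnh8*, chr17:52602459-52602708, + strand: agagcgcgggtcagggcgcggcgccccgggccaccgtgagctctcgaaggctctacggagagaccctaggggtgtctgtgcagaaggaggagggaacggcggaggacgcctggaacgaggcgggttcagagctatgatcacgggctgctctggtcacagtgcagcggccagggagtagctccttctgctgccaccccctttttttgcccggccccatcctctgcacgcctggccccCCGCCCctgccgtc

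The printed *Kcne3* window, that of the second start, held GGGCGG at positions -97 and -47 from the start. The internal *Kcnj6* window held CAGCACC at -162 and GGGCGG at -104 on the opposite strand, and the *Kcnh8* window held GGGCGG at -14 on the opposite strand. The window of the first *Kcne3* start, chr7:100176420-100176669, is not printed. Before that start, which was not matched to a GENCODE transcript either, it held no GGGCGG or CAGCACC. It held CCAAT at -168 and -8 on the opposite strand and GGACAG at -156. The distal *Kcnj6* window held none of the 6 motifs searched. Over whole windows and both strands, GGGCGG was found in 48.3% of the 89 member windows and in 35.7% of all 32851 windows, and CAGCACC in 11.2% against 7.14%. GGACAG, the other side of the REST element, was in 29.2% against 22.2%, CCAAT in 31.5% against 37.4% and TATAAA in 4.49% against 13.6%. TGACGTCA, the cyclic AMP response element used by germ cell activators, was in 0 of the 89 member windows and in 1.79% of all. These are matches of letters and were set beside no binding data.

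At day 22 no member was higher in KO and 2 of 68 were lower, against a background of 2.51% of all genes in either direction, 1.26% higher and 1.25% lower. Both were auxiliary subunits. Unadjusted p-values lay under 0.05 for 17 of the 68 members and for 14.6% of all genes. KO values lay under all WT values for 9 members, 13.2%, against 4.45% of all genes, and above them for 3, 4.41%, against 3.64%. Among the 9 were *Kcna2*, *Kcnc2*, *Kcne4*, *Kcnip3*, *Kcnmb1*, *Kcnmb3*, *Kcnn3* and *Kcnq5*.

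*Kcne4* (chr1:78816758-78820028, + strand), an auxiliary subunit that dampens voltage-gated pores and is known from smooth muscle, stood at 4.37, 4.43, 4.14 and 5.42 CPM in WT and at 3.63, 2.77, 2.50 and 1.21 CPM in KO. All KO libraries were lower, and KO_d22_4 was the lowest. That library also had the lowest share of pairs aligned to several places, 4.74%, and the lowest values of the day for the myoid marker Acta2 (142 CPM), the endothelial marker Cdh5 (12.5 CPM) and the macrophage marker Csf1r (21.3 CPM). Without it the *Kcne4* difference was -0.63 (adjusted p = 0.0738). The fit gave -0.86 on the log2 scale (SE 0.22, adjusted p = 0.0453). At day 20 the genotypes overlapped (log2 fold change 0.08), while on days 24 and 26 both KO libraries lay under both WT libraries, with 2.69 and 2.64 CPM against 3.71 and 5.17 at day 26 (log2 fold change -0.73, adjusted p = 0.379).

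*Kcnmb3* (chr3:32471588-32492231, - strand), a regulator of the BK channel, had 13, 6, 13 and 18 counts in WT and 2, 8, 3 and 2 in KO. In CPM the groups did not overlap, KO_d22_2 at 0.481 lying just under WT_d22_2 at 0.502. On the log2 scale this was -1.70 (SE 0.43, adjusted p = 0.0383). *Kcnmb3* was lower on every day by the fit, with differences of -1, -0.44 and -0.47 on days 20, 24 and 26, none of which passed alone.

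Both day 22 calls lay close to the threshold. With no filter on low counts neither was called (adjusted p = 0.0617 for *Kcne4* and 0.0550 for *Kcnmb3*). Replicate numbers as blocks also ended both calls, and a fit of day 22 alone called no member. The *Kcne4* call was lost in 19 of the 24 fits that left out a library, with adjusted p-values up to 0.182, and the *Kcnmb3* call in 12, up to 0.144, while the fold changes stayed between -1.08 and -0.63 and between -2.32 and -1.48. Both highest values came without WT_d22_4. Neither was called without any 1 of WT_d22_1, WT_d22_2, WT_d22_3, WT_d22_4, KO_d22_3, KO_d22_4, KO_d24_1, KO_d24_2, WT_d24_2, WT_d26_1 or WT_d26_2, and *Kcne4* was also lost without KO_d22_2, among others. Without the 8 libraries with epididymis markers, *Kcne4* stood at -0.96 (adjusted p = 0.163) and *Kcnmb3* at -1.35 (adjusted p = 0.389). With that score in the fit *Kcnmb3* kept its call (-2.20, adjusted p = 0.0284) and *Kcne4* did not (-0.91, adjusted p = 0.106).

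At days 24 and 26 no member was called, against 0.0874% of all genes on day 24, 0.0175% higher and 0.0699% lower, and 0.0466% on day 26, all lower, and at an unadjusted p under 0.05 there were 5 and 10 of the 68 members, against 5.23% and 11.5% of all genes. DESeq2 also called none on either day. Groups of 2 that do not overlap are common. On day 24, 11 members (16.2%) were higher and 10 (14.7%) lower without overlap, against 22.6% and 21.4% of all genes. On day 26, 20 members (29.4%) were lower in both KO libraries, against 31.1% of all genes, and 13 (19.1%) were higher, against 27.8%. A fit of day 26 on its own, with 2 libraries a side, called 7 of the 60 members it tested (11.7%), 5 higher (8.33%) and 2 lower (3.33%), against 12.8% of all genes in that fit, 7.51% higher and 5.27% lower, so the members' share was near the background. They were *Kcnmb4* (0.75), *Kcnf1* (1.76), *Kcng4* (0.59), *Kcnj9* (0.38) and *Kcnc1* (0.82) higher, and *Kcnd3* (-0.42) and *Kcnma1* (-0.44) lower, all with adjusted p between 0.0101 and 0.0442. *Kcnmb4* and *Kcnma1* are an auxiliary subunit and the pore of the same channel: at day 26 *Kcnmb4* was at 18.5 and 20.0 CPM in WT and 28.2 and 36.0 in KO, and *Kcnma1* at 27.4 and 28.5 CPM in WT and 21.5 and 19.5 in KO. In the fit over all days these differences were 0.74 (adjusted p = 0.282) and -0.45 (adjusted p = 0.272).

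Over the mean of the 4 days, 7 of 68 members (10.3%) were called, 3 higher and 4 lower in KO, against 7.08% of all genes, 3.52% higher and 3.56% lower. Those higher were *Kcne3* (1.25, adjusted p = 0.0293), *Kcnf1* (1.07, adjusted p = 0.0354) and *Kcnj6* (0.96, adjusted p = 0.0402). Those lower were *Kcnd3* (-0.26, adjusted p = 0.0254), *Kcnmb3* (-0.90, adjusted p = 0.0320), *Kcnj8* (-0.76, adjusted p = 0.0394) and *Kcna5* (-1.05, adjusted p = 0.0475). Unadjusted p-values lay under 0.05 for 26 of the 68 members and for 23.2% of all genes. By role, 2 were voltage-gated pores, 1 a silent modifier, 2 inward rectifiers and 2 auxiliary subunits, and no tandem-pore leak channel or calcium- or sodium-activated pore was called in KO against WT on any day or over the mean in the fit over all days.

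*Kcnd3* (chr3:105452330-105674002, + strand), the pore of a fast transient current, had the smallest change and the highest level of the 4 that were lower. At day 20 its WT libraries were at 92.1, 78.6, 95.8 and 93.9 CPM and its KO libraries at 65.4, 76.2, 87.6 and 87.0. At day 22 they were at 66.3, 75.3, 82.0 and 83.1 in WT and 70.6, 60.5, 70.7 and 76.1 in KO. The groups overlapped on both days. At day 24 WT stood at 69.4 and 70.2 and KO at 58.0 and 57.4, and at day 26 WT at 59.6 and 55.0 and KO at 44.8 and 40.4, with no overlap. Across the 24 libraries the genes outside the members with the most similar log2 CPM were *Dnmt3a* (Pearson r = 0.963), *Snx18* (r = 0.962) and *Foxo1* (r = 0.960), a description over libraries that share age and depth.

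*Kcnj8* (chr6:142564837-142571614, - strand) encodes the pore of the ATP-sensitive potassium channel of smooth muscle and pericytes. It stood at 1.26, 0.737, 3.12 and 2.45 CPM in WT and 1.38, 1.96, 1.32 and 1.35 CPM in KO at day 20, where the groups overlapped. At day 22 WT was at 1.34, 2.26, 2.62 and 2.35 and KO at 1.15, 1.14, 1.71 and 0.670 CPM, again with overlap. At days 24 and 26 the KO libraries, 1.31, 1.18, 0.895 and 1.03 CPM, were under the WT libraries of their day, 1.61, 3.06, 1.85 and 1.72 CPM.

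*Kcna5* (chr6:126532551-126535412, - strand), a delayed rectifier pore also known from vascular smooth muscle, was low throughout. At day 20 it ranged from 0.316 to 1.37 CPM in WT and from 0.0725 to 0.745 in KO, and at day 22 from 0.352 to 0.753 in WT and from 0.301 to 0.424 in KO. At day 26 it stood at 0.811 and 0.359 CPM in WT and at 0.275 and 0.115 in KO, where both KO libraries were at or near the floor.

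**Figure D3:**
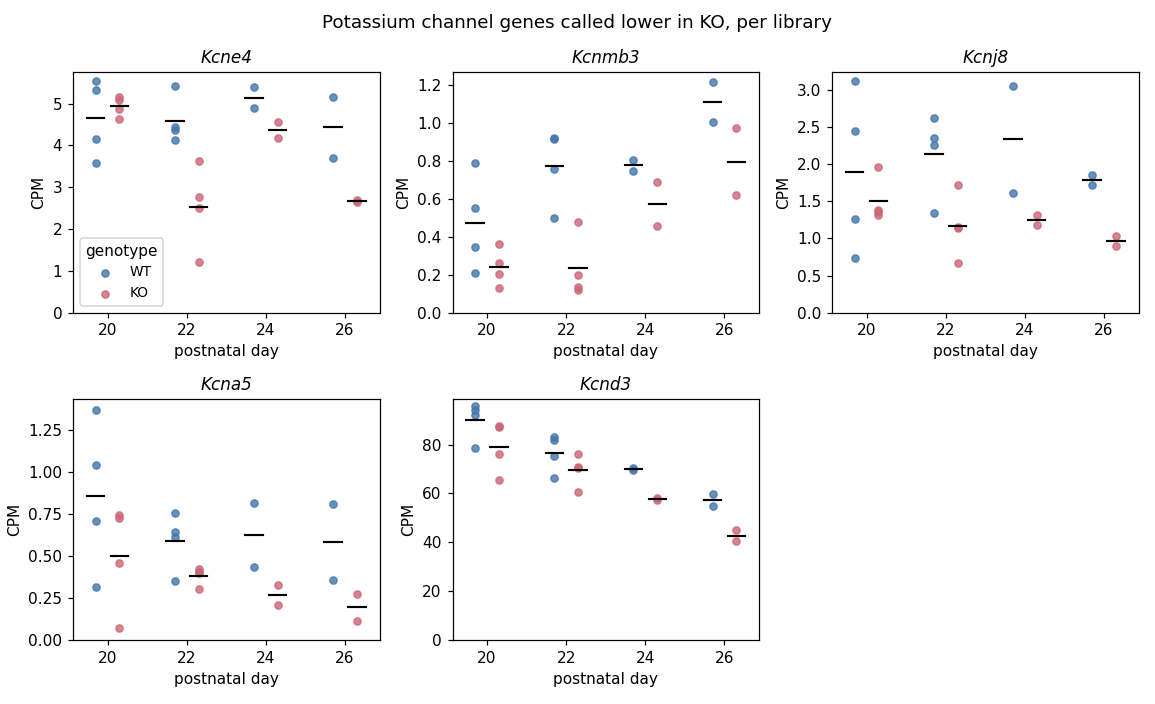
CPM against postnatal day for the 5 members called lower in KO, at day 22 or over the mean of the days, with 1 point for each library, WT in blue and KO in red, and bars at the group means. *Kcne4* and *Kcnmb3* do not overlap between genotypes from day 22 on, and *Kcnd3*, *Kcnj8* and *Kcna5* overlap on days 20 and 22 and are separate on days 24 and 26.

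Markers of wall and vessel cells were set beside these lower members. Of 5 peritubular myoid markers, all were fitted lower over the mean of the days and 2 were called. Their summed level on day 20 was 593 to 1036 CPM in WT and 509 to 658 in KO. On day 22 it was 496 to 732 CPM in WT and 251 to 514 in KO, on day 24 495 to 552 and 437 to 441, and on day 26 363 to 436 and 270 to 312. Of 4 endothelial markers, all were fitted lower and 2 called, with 57.0 to 64.0 CPM in WT and 24.4 to 50.5 CPM in KO at day 22. At day 20 the markers of both lists were all fitted lower, with a median log2 fold change of -0.43 in each, while *Kcne4* was not. None of the markers of either list was at 0 in every library. Their part in the lower values of *Kcne4*, *Kcnj8* and *Kcna5* was not tested. Of the other lists, over the mean of the days 3 of 6 round spermatid markers, all 5 elongating spermatid markers and 1 of 6 Leydig markers were called higher, and none of the 8 Sertoli, 6 spermatogonial, 6 pachytene, 4 macrophage, 4 Schwann cell, 4 neuronal and 2 epididymis markers tested was called.

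The 7 calls over the mean of the days depended on the libraries. Without the 8 libraries with epididymis markers none was called, with log2 fold changes of 1.12 for *Kcne3*, 1.26 for *Kcnf1*, 0.71 for *Kcnj6*, -0.24 for *Kcnd3*, -0.93 for *Kcnmb3*, -0.52 for *Kcnj8* and -1.03 for *Kcna5*. Leaving out KO_d24_2, WT_d24_2, KO_d26_1, KO_d26_2 or WT_d26_1 alone also left 0, and leaving out KO_d22_1 gave 11. Without KO_d24_1 none of the 7 was called, and *Kcna6* was called in their place. The count was 1 without WT_d20_3, 2 without WT_d22_3, WT_d22_4 or WT_d26_2, 3 without KO_d20_3, KO_d22_2 or WT_d22_2 and 4 without WT_d24_1. With the score as covariate 3 were called, *Kcnd3* (-0.29, adjusted p = 0.0290), *Kcnmb3* (-1.19, adjusted p = 0.0161) and *Kcna5* (-1.29, adjusted p = 0.0380), all lower.

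Taking the members together, more were fitted lower than higher in KO on every day. They were 40 of 68 on day 20, 43 on day 22, then 38 and 48 on the later days. Over all genes the shares fitted lower were 48.9%, 47.9%, 51.6% and 54.3%. The median log2 fold change of the members was -0.08, -0.18, -0.05 and -0.26 on the 4 days, beside 0.00, 0.01, -0.01 and -0.04 over all genes. A fitted difference below 0 on all 4 days was found for 17 members (25%) and 15.1% of all genes, and above 0 on all 4 days for 2 members (2.94%) and 11.2% of all genes. *Kcne4* and *Kcnmb3* were the members lower in KO without overlap on 3 of the days, 2.94% against 1.92% of all genes, and no member was higher without overlap on 3 days, against 1.06%. These shares are descriptions of the list, and the members are not independent of each other.

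Whether the KO difference itself changed between days was asked by 1 joint test of days 22, 24 and 26 against day 20. No member passed (0.00582% of all genes did), and 7 of 68 had an unadjusted p under 0.05, against 9.06% of all genes, the lowest for *Kcne3* (adjusted p = 0.343) and *Kcnj6* (adjusted p = 0.374). DESeq2 called 1 member, *Kcne3*. Without KO_d20_2 the edgeR test also called 1.

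The second comparison followed each genotype from day 20 to day 26. In WT, 19 of 68 members rose and 6 fell (27.9% and 8.82%), against 24.4% and 18.1% of all genes (42.5% in all). In KO, 19 rose and 15 fell (27.9% and 22.1%), against 27.2% and 24.9% (52.2% in all). Of these, 20 members were called in both genotypes, all in the same direction, 16 up and 4 down, which is 80% of the WT calls and 58.8% of the KO calls. A further 5 were called in WT alone, 14 in KO alone and 29 in neither. The change from day 20 to day 26 was not compared between genotypes by a contrast of its own. The joint test, in which no member passed, took days 22, 24 and 26 together.

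Among the members described here, *Kcne3* rose most in WT and *Kcnh8* in KO. *Kcne3* went from 0.173 to 0.648 CPM at day 20 to 54.5 and 64.1 CPM at day 26 in WT, a log2 fold change of 7.26 (SE 0.73, adjusted p = 3.51e-07), by way of 40.0 and 27.8 CPM at day 24. In KO it reached 54.2 and 60.9 CPM, a change of 3.47 (SE 0.56) from its higher start. The end points overlapped, and the genotypes differed at the start. *Kcnj6* rose by 4.99 in WT, to 14.7 and 16.8 CPM, and by 2.19 in KO, to 15 and 15.9 CPM.

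*Kcnh8* (chr17:52602709-52979194, + strand), a voltage-gated pore of the ELK group, started at no more than 4 counts in any library of either genotype, with overlapping groups. Its day 20 counts summed to 5 in WT and 5 in KO. It stood at 1.86 and 1.02 CPM in WT and 1.73 and 1.83 in KO at day 24, and at 3.77 and 3.95 CPM in WT and 3.24 and 4.25 in KO at day 26. The fitted rises were 5.25 (SE 0.75) in WT and 5.34 (SE 0.75) in KO, and the ratio of summed counts in WT was 41.1 (95% interval 17.1 to 129). Its highest KO value at day 20 was 0.264 CPM, and at day 22 KO_d22_2 and KO_d22_3 stood out at 1.32 and 0.725 CPM, against at most 0.256 CPM in the other 6 libraries of that day.

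*Kcnip2* (chr19:45791839-45816061, - strand), a calcium-binding partner of *Kcnd* pores, stayed between 0.314 and 1.33 CPM at day 20 and reached 4.63 and 3.23 CPM in WT and 6.4 and 5.22 CPM in KO at day 26 (rises of 2.22 and 2.97, SE 0.37 each). At day 24 its KO libraries, 4.01 and 2.03 CPM, already lay above the WT libraries, 1.37 and 1.02 CPM, a difference of 1.33 with an adjusted p of 0.527. *Kcnf1* rose by 3.07 in WT, where its start was at or under the floor and the ratio of summed counts was 8.56 (95% interval 3.75 to 22.8), and by 2.43 in KO. *Kcnb2*, a delayed rectifier pore, rose by 3.47 and 2.85 but from at most 3 counts in a library. With a library left out, its WT rise ran from 2.73 to 5.88. Its ratio of summed counts was 12.8 in WT, with a wide interval of 2.99 to 116, and 7.65 in KO (3.28 to 20.7).

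Other members rose by smaller amounts. *Kcnj9* went from 10.2 to 38.5 CPM at day 20 to 55.7 and 57.0 in WT (0.89, adjusted p = 0.0285), and from 21.0 to 27.6 CPM to 72.9 and 72.3 in KO (1.58, adjusted p = 0.000334). The 10.2 CPM was that of WT_d20_2 alone, with 97 counts against 490, 636 and 498 in the other WT libraries of day 20. With a library left out, the WT rise of *Kcnj9* ran from 0.56 to 0.98. *Kcnmb4* rose by 0.57 in WT and by 1.37 in KO. *Kcng4* rose by 1.03 in KO (adjusted p = 0.000222), from 16.3 to 19.0 CPM to 31.3 and 40.3 CPM, while in WT it went from 12.3 to 24.7 CPM to 24.3 and 23.7 CPM (0.30, adjusted p = 0.232). The 12.3 CPM was again WT_d20_2, with 117 counts against 314, 344 and 288. *Kcnq3*, a voltage-gated pore, rose by 1.85 in WT and 1.94 in KO, and *Kcnc1*, *Kcng1*, *Kcnab2*, *Kcnip4* and *Kcnk2* by 0.56 to 1.38 in the same way, as did *Kcnmb3* by 1.19 and 1.72. The WT call of *Kcnmb4* (adjusted p = 0.0470) was lost in 18 of the 24 fits that left out a library, with changes of 0.36 to 0.68 and adjusted p-values up to 0.210, the smallest change coming without WT_d20_2, and it was lost under 3 of the 6 other settings. That of *Kcnmb3* was lost in 6 of the 24 fits (0.95 to 1.51, adjusted p up to 0.198) and under 4 of the 6 settings. The WT call of *Kcnj9* was lost without either WT library of day 26, those of *Kcnf1* and *Kcnb2* without WT_d26_2, and the KO calls of *Kcnb2* and *Kcnmb3* without KO_d26_2. Of the members named here, *Kcnq3*, *Kcnc1*, *Kcng1*, *Kcnab2*, *Kcnip4* and *Kcnk2* were named after their values were seen.

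**Figure D4:**
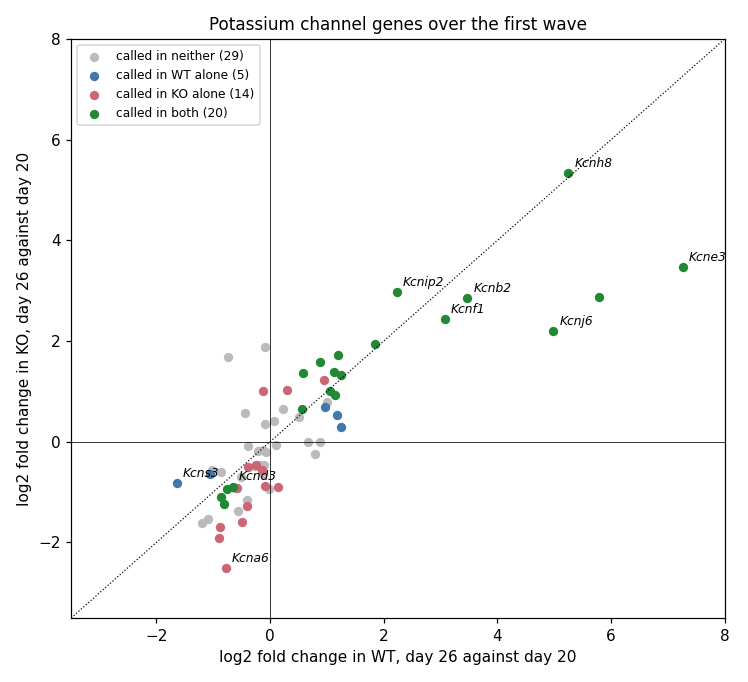
Log2 fold change from day 20 to day 26 in WT (x axis) and in KO (y axis) for the 68 members tested, coloured by where they were called, with a dotted line of equal change. The 20 members called in both lie in the same quadrants, and *Kcne3* and *Kcnj6* lie under the line, since their KO levels were already higher at day 20.

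The members that fell in WT were 3 silent modifiers and 1 each of the voltage-gated pores, inward rectifiers and auxiliary subunits. In KO they were 5 voltage-gated pores, 3 leak channels, 2 silent modifiers, 2 calcium- or sodium-activated pores, 2 auxiliary subunits and 1 inward rectifier. Called in both genotypes were *Kcnd3* (-0.65 in WT and -0.89 in KO), *Kcng3* (-0.87 and -1.11), *Kcns2* (-0.82 and -1.23) and *Kcnip3* (-0.75 and -0.95). *Kcng3* and *Kcns2* encode silent modifiers, and *Kcnip3* a calcium-binding partner of *Kcnd* pores that also acts as a repressor in the nucleus. *Kcng3* went from 7.20 to 11.1 CPM at day 20 to 5.16 and 4.52 at day 26 in WT, and from 6.37 to 10.8 CPM to 3.65 and 4.13 in KO, with no overlap in either genotype. *Kcns3* (-1.64, adjusted p = 0.0196) and *Kcnj4* (-1.06, adjusted p = 0.0346) were called in WT alone, both from under 2 CPM. The WT call of *Kcns2* (adjusted p = 0.0479) was lost under all 6 other settings and in 10 of the 24 fits that left out a library, with changes from -1.18 without WT_d26_1 to -0.54 without WT_d26_2. *Kcnip3* in WT ran from -1.22 to -0.42 and lost its call without WT_d26_2 (adjusted p = 0.290), as did *Kcng3*, *Kcns3* and *Kcnj4*. The *Kcnj4* call was lost in 4 of the 24 fits in all and under 5 of the 6 other settings.

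In KO alone, *Kcna6*, *Kcna3* and *Kcna2*, voltage-gated pores of the Shaker group, fell by 2.50, 1.92 and 1.60, *Kcnk3* by 1.70, and *Kcnj10*, an inward rectifier of glia and epithelia, by 1.27. Of these members *Kcna6* showed the widest gap between genotypes at the end: 1.45 and 1.15 CPM in WT and 0.207 and 0.574 CPM in KO at day 26 (log2 fold change -1.68, adjusted p = 0.209), after 1.65 to 2.84 CPM in all libraries of day 20. *Kcnk3* ranged widely within groups, from 12.4 to 32.5 CPM among the WT libraries of day 20 alone, and was lowest, at 4.19 CPM, in KO_d26_2. *Kcnt1* fell by 0.92, *Kcnk6* by 0.50 and *Kcnma1* by 0.46 in KO. The KO call of *Kcnj10* was lost in 9 of the 24 fits that left out a library and under 5 of the 6 other settings, with changes from -2.38 to -0.61 and the smallest without KO_d26_2 (adjusted p = 0.452). *Kcnk3* ran from -2.50 to -1.20 and lost its call without KO_d26_2 (adjusted p = 0.159). The *Kcnk6* call was lost under all 6 other settings and in 8 of the 24 fits, and that of *Kcnma1*, at -0.55 to -0.36, without KO_d26_2 alone. Leaving out KO_d26_2 also ended the KO calls of *Kcna2*, *Kcns2* and *Kcnt1*, and leaving out KO_d26_1 those of *Kcna3* and *Kcna2*. In WT *Kcnt1*, *Kcnk6* and *Kcnma1* were fitted at -0.59, -0.40 and -0.25, which did not pass. *Kcnh2*, the highest member of its role after *Kcnd3*, was called in neither genotype (-0.18 and -0.47).

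Cell markers moved with age too: the round spermatid markers were all called higher in both genotypes, the spermatogonial markers called lower were 4 of 6 in WT and 3 of 6 in KO, and the Sertoli markers 5 of 8 in each. All 5 elongating spermatid markers were called higher in both genotypes, and the Leydig markers called higher were 6 of 6 in WT and 3 of 6 in KO. Peritubular myoid markers called lower were 3 of 5 in WT and 4 of 5 in KO, and endothelial markers 2 of 4 in each. Their part in the changes of the members was not tested. With the score as covariate no member was called over these days in WT and 6 were in KO, among them *Kcnip2* (2.38, adjusted p = 0.0220), *Kcnmb4* (1.45, adjusted p = 0.0174) and *Kcnd3* (-1.07, adjusted p = 0.00458). The score rose with the day, from a mean of -2.88 at day 20 to 2.20 at day 26 in WT and from -0.99 to 1.86 in KO. Score and day are thus hard to separate here, though KO_d20_4 (0.43) lay above every WT library of day 22. Without the 8 libraries with epididymis markers, 9 members rose and none fell in WT, and 11 rose and 4 fell in KO, with 1 library a genotype left at day 26. In WT the calls lost then included *Kcnj9* (0.97), *Kcnmb3* (1.15), *Kcnmb4* (0.59), *Kcnf1* (2.27), *Kcnb2* (5.11), *Kcnip4* (0.70) and *Kcnk2* (0.63) among the rises, and all 6 falls, with *Kcnd3* at -0.57, *Kcng3* at -0.79, *Kcns2* at -0.51, *Kcnip3* at -0.24, *Kcns3* at -1.30 and *Kcnj4* at -0.95. In KO they included the rises of *Kcng4* (0.84, adjusted p = 0.0567), *Kcnmb3* (1.44), *Kcnb2* (3.10), *Kcnab2* (0.98), *Kcnip4* (0.90) and *Kcnk2* (0.63). The falls lost in KO included *Kcns2* (-0.82), *Kcnip3* (-0.85), *Kcnk3* (-1.28), *Kcna2* (-1.94), *Kcnj10* (-0.48), *Kcnk6* (-0.34), *Kcnma1* (-0.25) and *Kcnt1* (-0.87). Without WT_d26_2 alone the WT count was 13, and without KO_d26_2 alone the KO count was 18.

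The levels of 4 members followed the sum of the epididymis markers most closely. *Kcnj16*, an inward rectifier of transporting epithelia, ranged from 0.458 to 7.40 CPM in the 8 libraries with these markers and reached at most 0.334 CPM in the other 16, and its highest value, in WT_d24_2, fell on the library with the highest marker sum, 716 CPM. The Pearson r between its log2 CPM and that of the summed markers was 0.83 over the 24 libraries. *Kcnc4* followed with r = 0.77, from 0.229 to 1.63 CPM in the 8 and at most 0.472 CPM in the others, and *Kcna1* with r = 0.73, from 0.462 to 4.91 and from 0.0654 to 1.18 CPM. *Kcnk1*, a leak channel, had r = 0.65, with medians of 5.47 and 3.32 CPM. None of the 4 was called in KO against WT or from day 20 to day 26. Without KO_d22_1, *Kcnc4* was called lower in KO over the mean of the days, where its difference with all libraries was -1.41 (adjusted p = 0.144). These 4 were named after their values were seen, as the members most like the marker sum, and the correlations are descriptions over libraries.

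**Figure D5:**
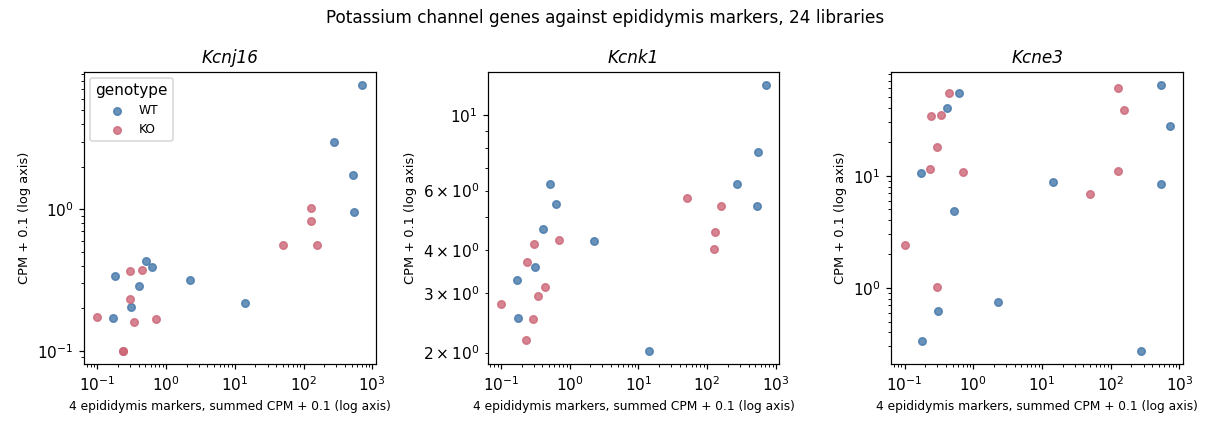
CPM + 0.1 of *Kcnj16*, *Kcnk1* and *Kcne3* against the summed CPM + 0.1 of 4 epididymis markers, both on log axes, with 1 point for each of the 24 libraries, WT in blue and KO in red. *Kcnj16* is above 0.334 CPM only in the 8 libraries whose markers exceed 50 CPM, *Kcnk1* reaches its highest value of 12.2 CPM in the library with the most, and *Kcne3* shows little relation (r = 0.17).

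The other genes of potassium transport were counted in the same way. A list of 34 pumps, cotransporters, channel partners and related channels had 30 members tested. At day 20, 2 were called higher in KO, *Kcnu1* (1.46, adjusted p = 0.0162), the sperm-specific pore SLO3, and *Atp1a4* (4.25, adjusted p = 0.0238), the sodium pump of sperm, and 1 lower, *Kcnab1* (-3.21, adjusted p = 0.0166), an auxiliary subunit, against 2.98% and 0.361% of all genes. At day 22 none was higher and 2 were lower, *Kcnab1* and *Abcc9*, the sulfonylurea receptor that pairs with *Kcnj8*, against 1.26% and 1.25% of all genes. No gene of the list was called on days 24 or 26, and over the mean of the days 2 were higher and 3 lower, against 3.52% and 3.56%. From day 20 to day 26, 9 of 30 rose and 4 fell in WT, against 24.4% and 18.1% of all genes, and 8 rose and 7 fell in KO, against 27.2% and 24.9%, shares near the background.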

How the data were processed

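RNA of testis was sequenced as stranded, ribosome-depleted total RNA, in read pairs of 75 bases. The authors deposited a table of raw counts by gene symbol for each of the 24 libraries, made by alignment to mouse build mm10 with STAR 2.7.11b and counting of exons by strand with HTSeq. Pairs aligned to several places were not counted, which lowers genes with near-identical copies. No member shares exon sequence of its own strand with another gene. Pairs in no exon made up 45.1% to 58.5% of a table, pairs with several alignments 4.74% to 13.7% and ambiguous pairs 0.132% to 0.229%, and none of these entered library sizes or tests. Assigned counts ranged from 10709667 to 19491935 a library.

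Groups and replicate numbers came from the labels. Counts went into edgeR 4.0.16 (R 4.3.3, limma 3.58.1), whose quasi-likelihood test was run with TMM scaling, filterByExpr at its minimum count of 10 and robust dispersions. The 8 groups each had a coefficient, and all libraries shared 1 estimate of the spread. Tests were two-sided, with Benjamini-Hochberg adjustment over 17170 genes and calls at 0.05. KO was set against WT on each day and over the plain average of the 4 days, the days were tested jointly for unequal differences, and day 26 was set against day 20 in each genotype. CPM were scaled by TMM, and FPKM divided them by the union of exons in GENCODE M21 (mm10), in which all 90 members were found. The fit was also run on simulated counts with known fold changes, the results of which are not reported here.

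The members, role classes, marker lists and list of other transport genes were chosen with earlier results of these data known. Named with values were members called in KO against WT, the 5 largest rises and falls among those called from day 20 to day 26 in each genotype, and the 2 highest per length in each role, 29 in all, of which some are not reported here. Members with no library above 3 counts in a group are given with a ratio of summed counts and an exact conditional 95% interval. Stage scores used a prior count of 2 and were compared by exact permutation within days. Alternatives were DESeq2 1.42.0, its size factors in edgeR, no filter, replicate numbers as blocks, the stage score as covariate, each day fitted alone and each library left out. Leaving out 8 libraries together was added after the data were seen. No 2 libraries of a group agreed within sampling noise. The study's text gives fewer libraries at day 20 than the labels, and all labelled libraries were used.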

Additional observations from a re-analysis of the deposited data

Results flagged for a closer look

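In the KO libraries of day 20, *Kcnj8* stood at 1.96 CPM in KO_d20_2 and between 1.32 and 1.38 CPM in the other 3, a gap of 0.91 of the range of the group, over the 95% limit of Dixon's test for 4 values. The library was 1 of 36 gene and group combinations checked, over the 9 members called in KO against WT, and chance alone gives about 1 in 20. The *Kcnj8* difference over the mean of the days passed with this library (-0.76, adjusted p = 0.0394) and without it.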

How the results depend on the processing

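Of the 12 KO against WT calls on single members, all kept their direction under every alternative run, and each lost its call under at least 1. The setting that leaves out 8 libraries was added after the data were seen. With the stage score as covariate the members called were 0 at day 20, 1 at day 22, 3 over the mean of the days, 0 from day 20 to day 26 in WT and 6 in KO. With each day fitted alone they were 0 at day 20, 0 at day 22 and 7 at day 26. With the 8 libraries with epididymis markers left out they were 0 at day 20, 1 at day 22 (*Kcnj15*, lower), 0 over the mean, 9 in WT and 15 in KO. With no filter on low counts they were 0 at day 22 and 4 over the mean. DESeq2 called 1 member, *Kcne3*, in the joint test, and DESeq2 size factors in edgeR moved no count past 1.5 times. Leaving out each library in turn gave 0 to 4 at day 20, 0 to 2 at day 22, 0 and 0 at days 24 and 26, 0 to 11 over the mean, 13 to 26 from day 20 to day 26 in WT, 18 to 37 in KO and 0 to 1 in the joint test. The stage score difference over the 4 days was 0.55 (exact two-sided permutation p = 0.0417), an average of 1.88 and 0.88 on days 20 and 22 with -0.22 and -0.34 on days 24 and 26, and ran from 0.43 to 0.67 with a library left out (p = 0.0187 to 0.0799) and was 0.52 with medians over list members (p = 0.0561).

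Only the stage covariate turned directions, each in day 26 against day 20 and none past the test there: *Kcnj6* in KO to -0.15, and in WT *Kcnmb3* to -1.34, *Kcnf1* to -0.28, *Kcns3* to 0.35, *Kcng3* to 0.57, *Kcnh8* to -3.95 and *Kcnj9* to -0.32. Of 1671 values for single members and for the stage score by day, 1355 kept direction and side of the threshold. The cause of the lost calls was not tested, apart from the fewer libraries of those fits.

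The replicate numbers were not taken as pairing the libraries, since not every pair had a correlation over 0.1: over 12 same-numbered WT and KO pairs the correlation of deviations from the group means ran from -0.46 to 0.42, with 7 over 0.1, none of them among the 4 pairs of day 22. The 4 pairs of days 24 and 26 tell little, since with 2 libraries a group both pairs of a day must share 1 value. On days 20 and 22, 3 of 8 WT libraries correlated best with their own number. On days 20, 24 and 26 the libraries with epididymis markers bore the same replicate number in both genotypes. They were WT_d20_3 and KO_d20_3, WT_d24_2 and KO_d24_2, and WT_d26_2 and KO_d26_2. On day 22 they were WT_d22_4 and KO_d22_1. Whether same-numbered libraries were handled together was not given. With the replicate block the members called were 3 at day 20, 0 at day 22 (*Kcne4* and *Kcnmb3* both lost their calls, with adjusted p = 0.0811 and 0.0773), 5 over the mean of the days (without *Kcnmb3* and *Kcnj8*, with adjusted p = 0.0557 and 0.0721), 21 from day 20 to day 26 in WT and 33 in KO.

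Depth limits the low members: at 3 counts, or 0.153 to 0.316 CPM, an absence cannot be read and a fold change is imprecise, as for *Kcnf1* at day 20 in WT and *Kcnmb3* at day 22 in KO, and days 24 and 26 rest on 2 libraries a genotype.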
